A study of Solanum tuberosum with 22 samples.

Results

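Patatin and the protease inhibitors KTI-C, API and PIN-II of the potato tuber (Solanum tuberosum) were followed through tuber formation in culture and on whole plants. The spots were those whose annotation names 1 gene with pat1, KTI-C, API or PIN-II as its symbol or synonym. They numbered 32 of the 32448 spots of the array, and of the 1630 spots listed with 1 gene. Patatin (pat1, LOC102605260) had 6 spots, KTI-C (LOC102577909) had 14 and API (LOC102604256) had 2. The synonym PIN-II is carried by 2 genes, LOC102577839 with 8 spots and LOC102577716, also called PIN2K, with 2, and they are kept apart here as PIN-II and PIN2K. The 32 spots came from 16 clones printed on 2 spots each, lettered A to G within a gene, so the spots of a clone share their sequence and are not separate measurements of a gene. All 5 genes are on sequence with no assigned chromosome in the RefSeq gene table of assembly SolTub_3.0.

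RNA of each sample was hybridised against a pool of the RNA of all stages of its own system on a 2-colour array, and a value is the log2 of the ratio of sample to pool. In vitro, microtubers (small tubers that form on cultured plantlets) came from 2 populations and were 2, 5, 10, 20 or 30 days past induction, on hormone-free medium with 8% sucrose in continuous darkness. In vivo, stolons (the underground shoots that swell into tubers) and tubers of 1-5, 6-10, 11-15, 16-25 and 26-35 mm came from 2 sets of 10 plants, grown one after the other in a growth chamber. Every group therefore had n = 2, and the stolon RNA alone was amplified to cRNA before labelling, so in each comparison of tubers with stolons the tissue and the amplification cannot be told apart. The cultivar is not given in the sources used here, and the labels repeat the culture medium for the in vivo plants.

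Patatin is the main storage protein of the tuber vacuole and also a lipid acyl hydrolase. The Kunitz-type inhibitors KTI-C (a cysteine protease inhibitor) and API (an aspartic protease inhibitor active on cathepsin D) and the serine proteinase inhibitor PIN-II accumulate beside it in the tuber, where they are regarded both as storage proteins and as a defence against insects. PIN-II is a classical wound gene in potato and tomato leaves, where jasmonate induces it, and patatin is known to be induced by sucrose.

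The direction of the in vivo ratios is likely, not settled. As deposited, the 2 in vivo replicates of a stage correlated between -0.630 and -0.361 across spots, and replicate 2, which carries the opposite dyes, was multiplied by -1 here. Earlier work on these data took patatin, known from tubers, as one reason for that choice, so the sign of the difference between tubers and stolons is not independent evidence for these genes. With the other choice every in vivo value below changes sign and its size stays. A pool of equal parts of 6 stages has a mean linear ratio of 1 over its stages. For KTI-C spot 137372 that mean was 3.78 in replicate 1 and 0.903 in replicate 2 in the direction used, and 17.2 and 67.7 in the other. For the PIN-II spots the 2 replicates differ in this respect. For 5 of their 7 spots with all 6 values in replicate 1, such as 144754 (2.13 as used, 0.770 in the other direction) and 146814 (3.75 and 0.868), the mean was nearer 1 in the other direction. In replicate 2 it was nearer 1 in the direction used for 144754 (1.16 as used, 1.67 in the other) and 145598 (1.071 and 1.625). The same held for 145970 (1.12 and 1.61) and 146814 (1.51 and 1.63), but not for 148864 (1.229 and 1.175). In vitro values are used as deposited (replicate correlations of 0.605 to 0.787), with the sample labelled Cy5 throughout. The order of the dyes in the deposited ratio is not given, and 1 order for all arrays would turn 1 of the 2 systems against the choice made here, so the in vitro direction is not settled either. With the sign turned, each in vitro value and difference below keeps its size and changes its sign. Among arrays of 1 dye orientation the lowest correlation was -0.631 in culture, between 2 and 20 days, and -0.557 on plants, between stolons and tubers of 26-35 mm.

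Across all spots the array medians lay between -0.058 and 0.029. Values were present for 52% to 65.7% of spots on the in vitro arrays and for 33.1% to 48.9% on the in vivo arrays. Deviations of tuber classes of the same replicate from their class means correlated between 0.846 and 0.933, so the tuber values of a replicate shift together, whereas stolon deviations correlated between -0.468 and -0.375 with those of the tubers. Tests are moderated linear models (limma) of every spot measured on 80% or more of the arrays in the fit, with a Benjamini-Hochberg adjustment over all such spots and a threshold of 0.05. Since the in vivo replicate number marks the set of plants, values from a model that also holds the replicate as a block follow where they bear on a call.

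Patatin was far below the pool in stolons and close to it at 1-5 and 6-10 mm. Spot 143658 (clone B) read -6.64 in stolons of replicate 1 and -6.93 in replicate 2. In tubers of replicate 1 it read -0.23, 0.15, 0.73, 0.88 and 1.33 from the smallest class to the largest. In replicate 2 it read -0.99, -0.14 and -0.14 up to 11-15 mm and had no value in the larger classes. Both stolon values lay far below every tuber value. Both values at 1-5 mm lay below those at 6-10 mm, and the values at 6-10 and 11-15 mm overlapped. Its stage means were -6.79 ± 0.20 in stolons and -0.61 ± 0.53, 0.01 ± 0.20 and 0.30 ± 0.61 in the first 3 tuber classes (SD, n = 2). The duplicate spot 144502 differed from it by at most 0.13 where both had a value. The other 4 patatin spots read -6.64 or -5.64 in stolons and between -0.71 and 0.32 at 1-5 mm in replicate 1. At 11-15 mm spot 154631 of clone C was well above the pool, at 1.89 in replicate 1 and 1.22 in replicate 2. The spots of clone A read 0.10 and 0.34 there, in replicate 2 alone.

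The stolon reading of patatin in replicate 1 stood at the lowest ratio of the deposited values. That ratio was 0.01, a log2 ratio of -6.64, and 4 patatin and 6 KTI-C values were at it, all of them in stolon replicate 1. The deposited ratios have 2 decimals, so such a value is coarse and no lower ratio could be written. In replicate 2, which was turned, a low value is a large deposited ratio and has no such limit. A further 4 spots annotated with pat1 together with other genes were left out by the rule. They read between -6.43 and -2.25 in stolons and between 0.71 and 2.74 in tubers of 16-35 mm. They too lacked values in the large classes, with 3 of 4 spots measured in replicate 1 and 1 in replicate 2 at 16-25 mm, and 2 and 1 at 26-35 mm.

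**Figure D1:**
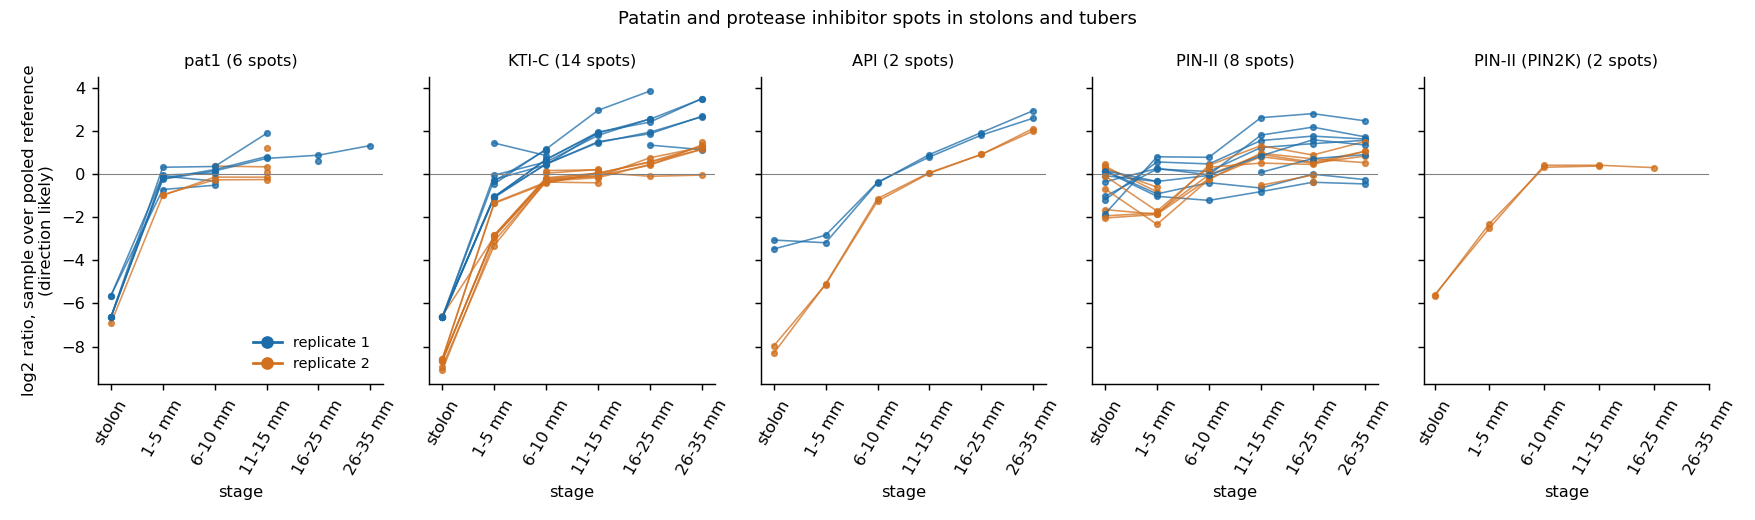
Log2 ratio of sample over pooled reference (vertical axis) for every spot of each gene against in vivo stage (horizontal axis), with 1 line per spot and replicate, blue for replicate 1 and orange for replicate 2, in the direction used here. Patatin and KTI-C spots stand at -5.64 or below in stolons and far higher at 1-5 mm, API continues upward to 26-35 mm in both replicates, and PIN-II spots spread over a narrower range.

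The KTI-C spots measured in stolons were, like patatin, far below the pool there. In replicate 1 spot 137372 read above patatin spot 143658 from 6-10 mm on. In replicate 2 it read below that patatin spot in each tuber class where both had a value, up to 11-15 mm. Spot 137372 (clone B) read -6.64 in stolons of replicate 1, the lowest ratio, and then -1.06, 0.68, 1.95, 2.42 and 3.51 in tubers of increasing size. In replicate 2 it read -8.63 in stolons and then -2.89, -0.32, -0.16, 0.45 and 1.15. Within each replicate the order of the values was the order of the sizes. Between replicates the tuber values were offset, and the stage means of -1.97 ± 1.29, 0.18 ± 0.71, 0.89 ± 1.50, 1.44 ± 1.39 and 2.33 ± 1.67 (SD, n = 2) therefore overlapped between neighbouring classes from 6-10 mm on. Over the KTI-C spots with both values, replicate 1 was above replicate 2 by a median of 0.95 to 1.91 in the 5 tuber classes, against 0.05 to 0.11 for all spots.

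The 14 KTI-C spots differed among themselves. Duplicate spots of clone B differed by a median of 0.05, yet the duplicate 139231 read -6.57 in stolons of replicate 2, which is 2.06 above 137372. Clone C stood apart in tubers of replicate 1, with 1.44 at 1-5 mm and 1.14 at 26-35 mm, where clones B and D went from -1.03 or lower at 1-5 mm to 2.66 or higher at 26-35 mm. Clone A reached 3.86 at 16-25 mm in replicate 1, the highest value of any of the 32 spots. Clone F, with 2 spots, had no value on any array.

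API had the longest run through the tuber sizes. Spot 135176 read -3.06 in stolons of replicate 1 and -3.18, -0.40, 0.91, 1.93 and 2.95 in tubers from 1-5 to 26-35 mm. In replicate 2 it read -8.32 in stolons and -5.10, -1.13, 0.07, 0.92 and 2.12 in tubers. In both replicates each tuber class was above the one before it. The class means were -4.14 ± 1.36, -0.76 ± 0.52, 0.49 ± 0.59, 1.42 ± 0.72 and 2.53 ± 0.59 (SD, n = 2). Both values of each tuber class lay above both values of the class before it, most narrowly from 11-15 mm (up to 0.91) to 16-25 mm (from 0.92). The 2 stolon values differed by 5.26, more than any stolon pair of the other genes, and the duplicate spot 136020 differed by 4.50. Both API spots had a value on all 12 in vivo arrays.

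PIN-II moved over a smaller range. Spot 144754 (clone B) read -1.18 in stolons and 0.57, 0.48, 1.56, 1.77 and 1.63 in tubers of replicate 1. In replicate 2 it read -1.93 in stolons and -1.80, -0.03, 0.92, 0.56 and 1.06 in tubers. The 2 replicates disagreed at 1-5 mm, where replicate 2 was at the stolon level and replicate 1 was not. The means of the 3 largest classes lay close together, at 1.24 ± 0.46, 1.16 ± 0.86 and 1.35 ± 0.41 (SD, n = 2). PIN2K had in vivo values in replicate 2 alone, and spot 161183 read -5.61 in stolons, -2.50 at 1-5 mm and 0.41, 0.41 and 0.30 in the next 3 classes.

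Spots of patatin, KTI-C, API and PIN-II were higher in tubers than in stolons in the direction used. Of 14 spots tested, 11 were higher and 0 lower at the threshold, with and without the block, against 22.3% of 10415 spots called over the array without the block and 39.6% with it. The median difference of the 14 spots was 5.59 and that of all spots tested 0.08. The patatin spot 143658 was higher by 7.17 ± 0.35 (log2, SE, limma adjusted p = 0.000512). The 5 KTI-C spots tested were higher by 7.24 to 8.48, with 8.21 ± 0.92 for spot 137372 (adjusted p = 0.00122). Setting the lowest ratios to missing, which leaves 1 stolon array for that spot, gave 9.20 ± 1.21 (adjusted p = 0.00318), where the lone stolon is assumed to vary like the tuber groups. The patatin spot then had too few values to be tested.

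API spot 135176 was higher in tubers by 5.60 ± 1.13 (adjusted p = 0.011), by 3.50 within replicate 1 and 7.69 within replicate 2. Without stolon replicate 2 the API difference was 2.97 (adjusted p = 0.0888), so the call rests on that array. Of the 6 PIN-II spots tested, 3 were higher, with 2.23 ± 0.59 for spot 144754 (adjusted p = 0.0299). That call was lost without stolon replicate 1 (2.60, adjusted p = 0.0955), stolon replicate 2 (1.85, 0.293), 6-10 mm replicate 1 (2.18, 0.0532) or 26-35 mm replicate 1 (2.17, 0.0512). As the mean of its 8 spots PIN-II differed by 0.95 (adjusted p = 0.129). In these samples of whole organs, fewer cells of a type and less RNA per cell cannot be told apart.

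At the first step, from stolon to 1-5 mm, spots of patatin and KTI-C passed the test. Of 14 spots tested 6 were higher, against 7.34% of all spots (22.7% with the block). These were the patatin spot, by 6.18 ± 0.43 (limma adjusted p = 0.00438), and 5 KTI-C spots, by 4.63 to 6.91. For KTI-C spot 137372 the step was 5.66 ± 1.18 (adjusted p = 0.0303). It was not past the threshold without stolon replicate 2 (4.67, adjusted p = 0.232), without 1-5 mm replicate 1 (4.75, 0.188) or without 1-5 mm replicate 2 (6.58, 0.0698). The API step was 1.55 ± 1.46 (adjusted p = 0.572), made up of -0.12 in replicate 1 and 3.22 in replicate 2, and -1.08 without stolon replicate 2 (adjusted p = 0.704). PIN2K, with too few values to be tested, went up by 3.11 and 3.36 on its 2 spots in replicate 2, where the 95th percentile of all spots was 2.40. The PIN-II step was 0.94 ± 0.76 on spot 144754 (adjusted p = 0.506). With the block 1 spot was lower, PIN-II spot 133735 of clone A, by -0.98 ± 0.25 (adjusted p = 0.0396, and 0.0946 without the block).

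Within the tubers, inhibitor and patatin ratios were higher in large than in small tubers once the replicate was taken into account. Without the block, 0 of 14 spots were called for 16-35 mm against 1-10 mm, as were 0% of all 10602 spots (679 of them had an unadjusted p under 0.05). With the block 13 of 14 spots were higher and 0 lower, against 19.6% of all spots. That fit used the 10 tuber arrays. When the stolons were included, 138 spots of the array were called with the block in place of 2075. KTI-C (adjusted p = 0.00343) and API (0.0323) were then past the threshold, and patatin (1.13, adjusted p = 0.141) and PIN-II (1.45, 0.0855) were not. All 14 differences were above 0, with a median of 2.11 against -0.04 for all spots tested. The KTI-C spots among them were of clones B, D and G. Of the KTI-C spots with too few values to be tested, 140583 of clone C differed by 0.09 within replicate 1. Spot 143736 of clone E differed by 2.69 within replicate 2. API spot 135176 differed by 4.43, with an SE of 0.51 without the block (adjusted p = 0.139) and 0.20 with it (adjusted p = 3.64e-05). Within replicates the API difference was 4.23 and 4.63.

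KTI-C spot 137372 differed by 2.78, with an SE of 0.82 (limma adjusted p = 0.467), or of 0.21 when blocked (adjusted p = 0.000107). This was 3.15 in replicate 1 and 2.41 in replicate 2. The patatin spot differed by 1.41 ± 0.41 (adjusted p = 0.55), or by 1.09 ± 0.21 when blocked (adjusted p = 0.0141). Patatin had a value above 15 mm in replicate 1 alone, so that its blocked value comes from replicate 1 in the large classes. PIN-II spot 144754 differed by 1.45, with an SE of 0.56 (adjusted p = 0.685), or of 0.29 when blocked (adjusted p = 0.0098). PIN-II spot 133735 of clone A, at 0.44, was the 1 spot not called with the block (adjusted p = 0.115). Leaving out each tuber array in turn, an alternative chosen after the data were examined, kept the blocked API difference between 4.16 and 4.70 and the KTI-C difference between 2.51 and 3.05. The highest adjusted p over these fits was 0.000376 for API, 0.000917 for KTI-C and 0.0412 for PIN-II.

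**Figure D2:**
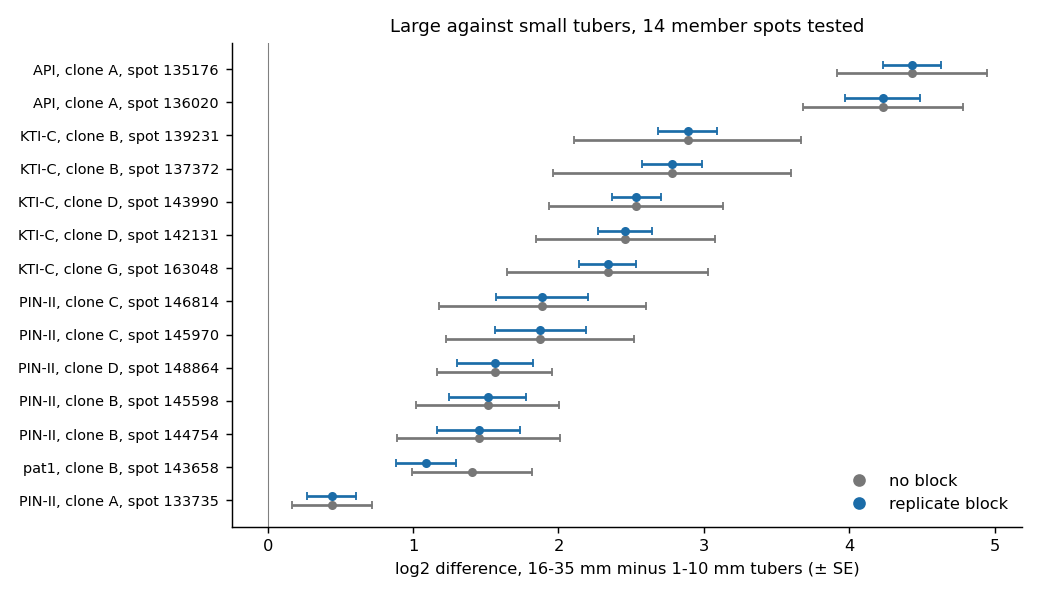
Log2 difference between tubers of 16-35 mm and 1-10 mm with its standard error (horizontal axis) for the 14 spots tested (vertical axis), in grey without and in blue with the replicate as a block. API stands at 4.23 and 4.43, the KTI-C spots between 2.34 and 2.89, and PIN-II spot 133735 lowest at 0.44, with narrower bars in the blocked fit.

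Between neighbouring tuber sizes, the step from 1-5 to 6-10 mm was the 1 at which inhibitor spots were called, and only with the block. From 1-5 to 6-10 mm API spot 135176 went up by 2.79 in replicate 1 and 3.97 in replicate 2, and KTI-C spot 137372 by 1.74 and 2.56. In the fit the API step was 3.38 (limma adjusted p = 1, or 0.00529 when blocked) and the KTI-C step 2.15 (adjusted p = 1, or 0.0187 when blocked). With the block 6 of the 14 spots were higher at this step, 2 of API and 4 of KTI-C (clones B and D), against 0.376% of all spots. On all 12 in vivo arrays with the block 0 spots of the array were called at this step, with an adjusted p of 1 for API and 0.314 for KTI-C. Without it 0 were called, and 0% of all spots (76 with an unadjusted p under 0.05). The patatin spot went up by 0.38 and 0.85 at the same step (0.62 ± 0.47, adjusted p = 1, or 0.498 when blocked).

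None of the 14 spots was called at a later step in either fit. Over the array 0% of spots were called at the steps from 6-10 to 11-15 mm and from 16-25 to 26-35 mm with either fit. At the step from 11-15 to 16-25 mm the share was 0% without the block and 0.00940% with it. Unadjusted p-values under 0.05 at these 3 steps numbered 45, 16 and 22 without the block and 1287, 372 and 522 with it, in order of size. The signs of the steps are given next as counts that pool duplicate spots and clones on the same arrays, so the steps counted are not separate measurements. API went up at 8 of 8 steps between tuber classes in each replicate, counted over its 2 duplicate spots, by 0.79 to 3.97. KTI-C went up at 25 of 27 steps in replicate 1 and 28 of 30 in replicate 2. Patatin went up at 10 of 11 and 3 of 5 steps, and PIN-II at 18 of 30 and 15 of 21. For all spots, 42% to 49.1% of the steps between tuber classes went up in replicate 1 and 44% to 55.9% in replicate 2.

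**Figure D3:**
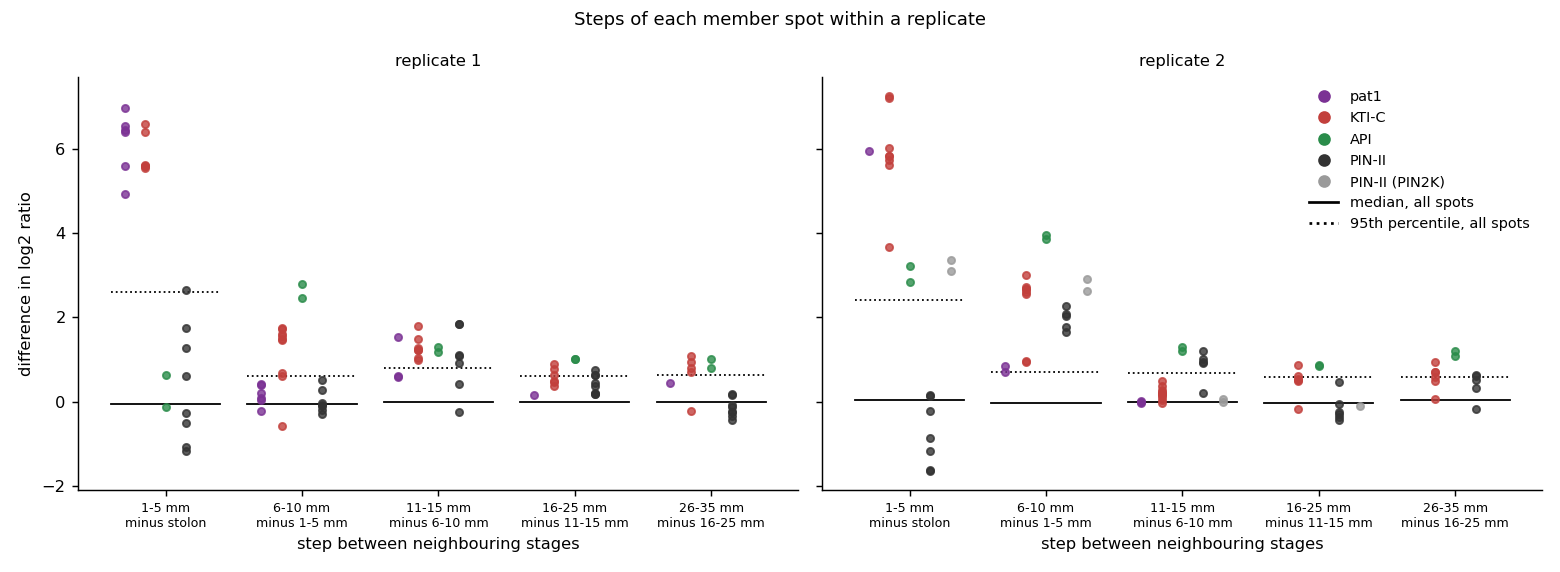
Difference in log2 ratio between neighbouring in vivo stages within replicate 1 (left) and replicate 2 (right), with 1 point per spot coloured by gene. Solid lines give the median and dotted lines the 95th percentile of all spots. The API points lie above the dotted line at every step between tuber classes in both replicates, while patatin and KTI-C stand highest at the step out of the stolon.

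PIN-II took its tuber steps at different sizes in the 2 replicates. From 1-5 to 6-10 mm, 2 of 7 spots went up in replicate 1 (median -0.09) and 5 of 5 in replicate 2 (median 2.03). At the next step, to 11-15 mm, 6 of 7 and 5 of 5 went up, with medians of 1.09 and 0.94. From 11-15 to 16-25 mm, 8 of 8 went up in replicate 1 and 1 of 6 in replicate 2. The step to 11-15 mm was thus the one at which both replicates moved alike, at 1.01 ± 0.79 for spot 144754 (limma adjusted p = 1).

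The 4 PIN-II clones differed among themselves, as described here after their values were seen and without a test. Clones B, C and D had their tubers of 11-35 mm between 0.08 and 2.81. Clone A was at or below 0 in every tuber value, between -1.22 and 0.00, and above 0 in all 4 stolon values, between 0.14 and 0.36. Clone D was mixed in stolons, where spot 148020 was also above 0, at 0.16 and 0.45, and its tubers differed from stolons by -0.02 ± 0.32 when spots with 50% of values were admitted (limma adjusted p = 0.979). In vitro, clones B to D spread from -2.56 to 0.98 and clone A from -0.45 to 0.32. Within clone C the duplicate spots differed by up to 1.48, and within clone A by up to 0.82. The clones carry the same gene name in the annotation, and members of a gene family that share sequence can bind to the same spot.

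**Figure D4:**
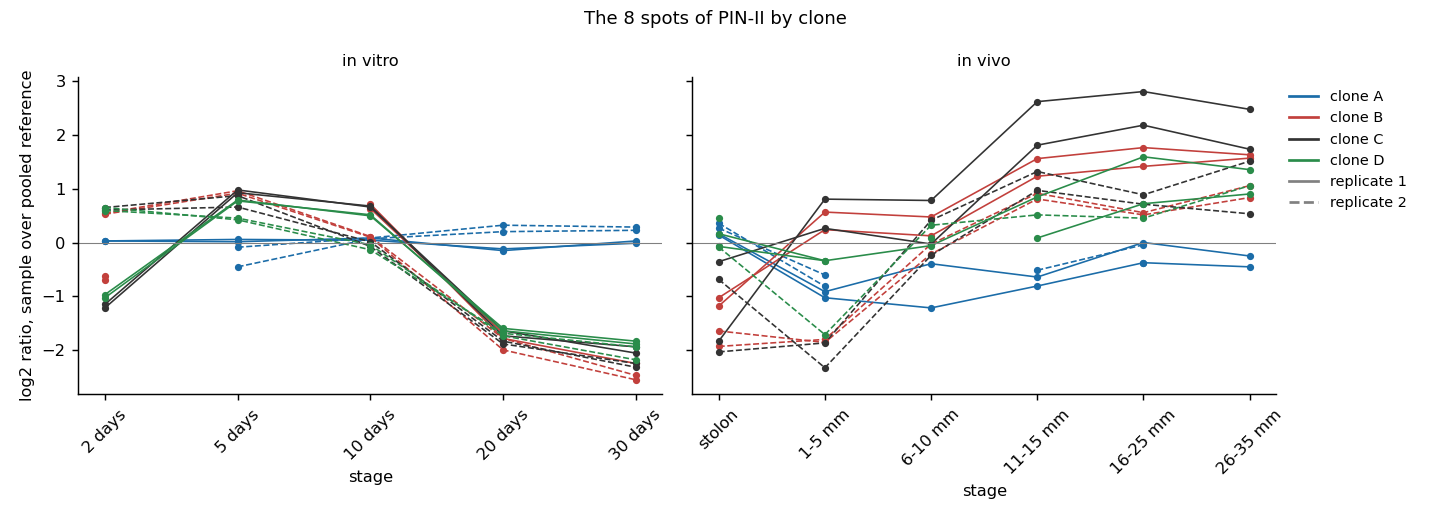
Log2 ratio of the 8 PIN-II spots (vertical axis) against culture time (left) and in vivo stage (right), coloured by clone, with solid lines for replicate 1 and dashed lines for replicate 2. Clones B, C and D lie at -1.60 or lower at 20 and 30 days and above 0 from 11-15 mm on, while the lines of clone A stay near 0 in vitro and between -1.22 and 0.36 in vivo.

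In culture, PIN-II of clones B to D was lower late than early. Spot 145970 (clone C) read -1.15, 0.98, 0.66, -1.64 and -2.06 over the 5 culture times in replicate 1. In replicate 2 it read 0.65, 0.87, -0.07, -1.89 and -2.25. The replicates differed by 1.80 at 2 days and lay within 0.73 of each other at every later time. Its means were highest at 5 days (0.93 ± 0.08) and lowest at 30 days (-2.15 ± 0.14, SD, n = 2), and the values of 20 and 30 days stood apart from all earlier ones.

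For 20 and 30 days against 2 and 5 days, 6 of the 8 PIN-II spots were lower and 0 higher, against 48.5% of 19600 spots called over the array. Spot 145970 differed by -2.30 ± 0.33 (limma adjusted p = 0.00031), and the 6 spots called lay between -2.57 and -2.00. The 2 spots of clone A differed by 0.11 and 0.17 (adjusted p = 0.536 and 0.371). The largest step lay between 10 and 20 days, where 6 of 8 spots were lower, against 3.66% of all spots, with -2.06 ± 0.46 for spot 145970 (adjusted p = 0.0417). That adjusted p was between 0.0728 and 0.198 without any 1 of the 6 arrays of 5, 10 and 20 days.

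At the other culture steps 0 of 8 spots were called. Over the array the share called was 5.49% from 2 to 5 days, 1.3% from 5 to 10 days and 0% from 20 to 30 days, where 692 spots had an unadjusted p under 0.05. From 2 to 5 days spot 145970 went up by 2.13 in replicate 1 and 0.22 in replicate 2, at 1.17 ± 0.46 in the fit (adjusted p = 0.166). Without 2 days replicate 2 this step was 2.08 (adjusted p = 0.00345).

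The time course of PIN-II in culture ran against its size course in vivo. The difference between late and early microtubers, minus that between large and small tubers, was called for 5 of 7 PIN-II spots, against 4.59% of all spots, and all 5 were below 0. For spot 145970 it was -4.17 ± 0.79 (limma adjusted p = 0.0135). With the other direction in vivo the same spot gave -0.42 (adjusted p = 0.832), so this contrast depends on the direction taken. The 2 systems have separate reference pools, and culture time and tuber size are not matched.

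Patatin, KTI-C, API and PIN2K were mostly without values in microtubers, so the labelled tissue could not be checked there by the defining tuber transcript. Patatin had 0 of 60 possible values in vitro and KTI-C 4 of 140. These were 3 values of -2.25 to -2.18 at 5 days and 1 of 0.30 at 30 days, all in replicate 2. API read -2.32 on both spots at 5 days and 0.38 on 1 spot at 30 days, again in replicate 2. PIN2K read -1.79 and -1.94 at 2 days and -0.03 and 0.00 at 30 days in replicate 2. PIN-II, by contrast, missed 6.25% of its in vitro values, and all spots together 37.5%. What made a value missing is not given in the sources used here, so a missing value is not read as a low or a high level.

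In vivo patatin had most of its values missing in the large tubers. It was missing in 41.7% of values in stolons, 33.3%, 25% and 33.3% in the first 3 tuber classes, and 83.3% and 91.7% in the last 2. These shares pool 2 unlike replicates. From stolons to the largest class, patatin missed 0%, 0%, 0%, 50%, 66.7% and 83.3% in replicate 1. In replicate 2 it missed 83.3%, 66.7%, 50%, 16.7%, 100% and 100%. KTI-C was missing in 50% of stolon values, 28.6% at 6-10 mm and 57.1% at 26-35 mm, which is below the share of all spots in each of these stages. API had 0 of its values missing in vivo, and PIN-II had 12.5% missing in tubers. Over all spots the share went from 52% in stolons to between 55.5% and 61.8% in tubers. From 6-10 to 11-15 mm, patatin lost 3 of 6 measured spots in replicate 1 and 0 of 3 in replicate 2. KTI-C lost 3 of 10 and 0 of 10 at that step, and all spots lost 3.97% and 10.8%. From 11-15 to 16-25 mm, patatin lost 2 of 3 measured spots in replicate 1 and 5 of 5 in replicate 2, and KTI-C 1 of 7 and 6 of 12, where all spots lost 16.5% and 8.41%. The cause of these losses was not tested.

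**Figure D5:**
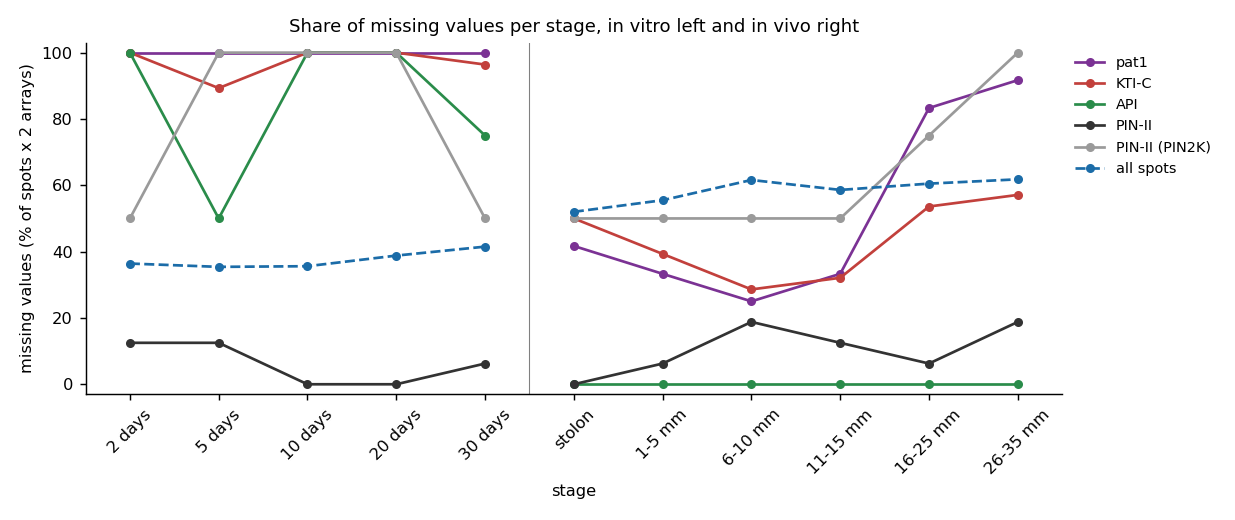
Share of missing values in percent (vertical axis) over the spots of a gene and the 2 arrays of a stage, for culture times (left of the line) and in vivo stages (right), with all spots of the array dashed. Patatin goes from 33.3% at 11-15 mm to 83.3% and 91.7% in the largest classes, while API stays at 0% in vivo and all spots lie between 52% and 61.8% there.

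Over the tuber arrays, with each replicate centred on its own mean, correlations among the genes ranged widely. The patatin spot had a Pearson r of 0.992 with KTI-C spot 137372, 0.961 with API spot 135176 and 0.807 with PIN-II spot 144754 over 8 arrays. KTI-C and API had an r of 0.983 over 10 arrays. PIN-II spot 133735 of clone A was lower, at 0.751 with KTI-C, 0.756 with API and 0.493 to 0.527 with the PIN-II spots of clones B and C, over 8 arrays. PIN2K had too few values. These values describe arrays that share plants and a reference pool.

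The other named genes most like each spot over the tuber arrays were taken from those with enough values. For patatin they were ARD (0.969), the starch phosphorylase gene glgP (0.963), the granule-bound starch synthase gene GBSS (0.947), the amylase gene AMYA1 (0.944) and GBSS-II (0.939), each over 8 arrays and out of 135 genes. For KTI-C they were the actin gene AC97 (0.991), ARD (0.961), GBSS (0.947), UDPGP (0.943) and GBSS-II (0.940), out of 150 genes. API had AC97 (0.990), NAD(P)H:QR (0.948), ARD (0.948), GBSS (0.945) and GBSS-II (0.944). PIN-II spot 144754 was most like AC97 (0.972), ARD (0.956), EI2 (0.955), PPO (0.953) and the cysteine synthase gene CS-B (0.951). In vitro PIN-II spot 145970 was most like Cyp (0.992), GAPDH (0.978), brittle1 (0.964), AdoMetDC (0.952) and XEGIP1 (0.941), over 8 to 10 arrays. The median r over all spots compared was -0.23 for patatin, -0.22 for KTI-C and API, -0.15 for PIN-II in tubers and 0.34 in vitro.

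The related gene lists placed these genes beside their neighbours in the same tissue. Starch genes known to respond to sucrose, as patatin does, had 15 of 22 spots higher and 0 lower in tubers than in stolons, with a median of 2.31, where 22.3% of all spots were called. UDPGP (UDP-glucose pyrophosphorylase) spot 138531 was higher by 1.90 ± 0.46 (limma adjusted p = 0.0209) and GBSS-II spot 145851 by 2.73 ± 0.38 (0.0037). For large against small tubers 0 of 22 spots were called without the block and 11 higher and 2 lower with it (19.6% of all spots), at a median of 0.47. UDPGP spot 138531 differed there by 1.09 (adjusted p = 0.327 without the block). In late against early microtubers 0 were higher and 8 of 19 lower, at a median of -0.305 against 0.016 for all spots. Of all 19600 spots 48.5% were called, 4749 of them higher and 4766 lower.

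Jasmonate, an oxylipin, is known to induce PIN-II in leaves. The list tested here holds oxylipin enzymes and other wound pathway genes. Not every gene on it acts in making jasmonate, and LAP and PEST2 are not oxylipin enzymes. The list had 2 of 11 spots higher and 1 lower in tubers than in stolons, a share near the 22.3% of all spots. Both higher spots were of CYP74D2, a divinyl ether synthase gene, at 6.03 ± 0.56 and 3.63 ± 0.61 (limma adjusted p = 0.00111 and 0.00536), and the lower one was LAP, leucine aminopeptidase, at -0.89 ± 0.23 (0.0288). For large against small tubers 0 were called without the block and 4 higher and 1 lower with it (19.6% of all spots). In late against early microtubers 4 of 16 spots were higher and 11 lower, against 48.5% of all spots called. The lipoxygenase POTLX-3 was higher by 1.45 ± 0.10 (adjusted p = 3.57e-06) and CYP74D2 by 0.73 ± 0.11 (0.00041), while the 2 PEST2 spots were lower by -1.68 and the 4 HPL (hydroperoxide lyase) spots were lower by -1.04 to -0.60.

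The list of vacuolar proteases matched 3 genes with 24 spots. These were VPE2, a vacuolar processing enzyme, and genes listed as cyp or Cyp, a symbol that is also used for cyclophilins. The counts of this list may therefore include spots that are not of proteases, and whether the inhibitors act on any of these enzymes was not tested. Of 22 spots tested 0 were called in tubers against stolons without the block, and 0 higher and 17 lower with it, where 39.6% of all spots were called. In large against small tubers 0 were called without the block, and 0 higher and 19 lower with it (19.6% of all spots), at a median of -1.06 without it. VPE2 spot 142359 differed by -3.89 ± 0.99 (limma adjusted p = 0.342 without the block). In late against early microtubers 4 of 20 spots were higher and 6 lower, a share near the 48.5% of all spots. VPE2 spot 142359 was higher there by 1.31 ± 0.09 (adjusted p = 3.02e-06). A list of other storage proteins and protease inhibitors, of 33 symbols, matched 0 further genes among the spots listed with 1 gene. Its symbols KTI-A, CDI and PI8 are synonyms of API, which is already followed here.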

How the data were processed

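The authors deposited log2 ratios of 22 two-colour arrays, and limma is named without a version in the submitters' processing notes. How background, normalization and spot filtering were handled, and the dye order, is not stated in those notes or the labels. Turned back to ratios, 100% of the deposited values fall on a grid of 2 decimals (tolerance 0.002), from 0.01 upward. They were used as deposited except that in vivo replicate 2 was multiplied by -1. Spots were named through GEO's platform annotation and the SolTub_3.0 gene table.

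Least-squares fits with moderated statistics (limma 3.58.1, R 4.3.3) handled missing values spot by spot and were tested on simulated data. No value was imputed. In vitro, tuber, in vivo and joint arrays were fitted apart. Tuber sizes were compared over the 10 tuber arrays, without the stolons. In vivo replicate numbers mark the set of plants per the labels' design text, and they also mark the dye. Members, spots shown and lists were chosen with earlier results of these data known. The spot shown for a gene is the one with most in vivo values (for PIN-II also in vitro). The 5 most alike genes and up to 4 genes a list, by smallest p for large against small tubers, were taken as named genes. Array numbers limit the precision, and no sequence is shown since none was among the sources used here. Alternatives were the replicate block, median centring, quantile normalization, other filters, lowest ratios set to missing, gene means, the other direction and leaving out each array.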

Additional observations from a re-analysis of the deposited data

Results flagged for a closer look

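The contrast of late against early microtubers minus large against small tubers passed the threshold for 5 PIN-II spots. It was -4.02 for spot 144754, -4.08 for spot 145598, -4.17 for spot 145970, -4.09 for spot 146814 and -3.56 for spot 148864. The adjusted p of the limma fit lay between 0.0053 and 0.0211. The 5 spots come from 3 clones, and the 2 spots of the fourth clone gave -0.54 and -0.27 (adjusted p = 0.286 and 0.616). With the other in vivo direction spot 145970 gave -0.42 (adjusted p = 0.832).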

How the results depend on the processing

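Of 844 alternative values over 52 results, 731 kept their direction and their side of the threshold, or lay within 1.5 times for a count. With the in vivo direction turned the other way, the tuber to stolon differences became -7.17 (patatin), -8.21 (KTI-C), -5.60 (API) and -2.23 (PIN-II). The first step then became -6.18, -5.66, -1.55 and -0.94 in the same order, and large against small tubers -1.41, -2.78, -4.43 and -1.45. The 4 later size steps became -0.62, -2.15, -3.38 and -0.84, then -0.29, -0.72, -1.25 and -1.01, then -0.58, -0.54, -0.93 and 0.08, then -0.45, -0.89, -1.11 and -0.18. The count of spots called for the difference between systems became 1167 and PIN-II there -0.42.

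With the replicate as a block, spots called numbered 4126 for tubers against stolons, 2368 for the smallest tubers against stolons, 2075 for large against small tubers and 5331 for the difference between systems. Size steps then had 40 calls from 1-5 to 6-10 mm and 1 from 11-15 to 16-25 mm. Large against small tubers passed the threshold under the block at 1.09 for patatin, 2.78 for KTI-C, 4.43 for API and 1.45 for PIN-II. On all 12 in vivo arrays with the block 138 spots were called, KTI-C at 2.78 and API at 4.43. In vitro the deviations from the stage means correlated between -0.142 and 0.441 across culture times, and what a replicate number marks there was not tested. The block left 5 PIN-II spots called between 10 and 20 days in culture. Quantile normalization gave 3788 spots for tubers against stolons. As gene means, PIN-II missed the threshold there at 0.95 (adjusted p = 0.129), and API passed it for large against small tubers at 4.33 (0.0337). The cause of these shifts was not tested.

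Leaving out each array in turn gave 366 to 2152 spots for tubers against stolons, API at 2.97 to 8.22 and PIN-II at 1.85 to 2.60. Without stolon replicate 1 the count was 1180 and without stolon replicate 2 it was 366. The first step gave 45 to 590 spots, KTI-C at 4.67 to 6.66, API at -1.08 to 4.17 and PIN-II at -0.24 to 2.12. PIN-II ran from -0.34 to 2.03 at the step to 6-10 mm, from -0.68 to 0.53 at that to 16-25 mm and from -0.42 to 0.79 at that to 26-35 mm. KTI-C ran from -0.34 to 1.77 at the step to 11-15 mm, from -0.52 to 1.60 at the next and from -0.28 to 2.07 at the last. In culture the counts ran from 162 to 1179 (2 to 5 days), 36 to 345 (5 to 10 days), 23 to 759 (10 to 20 days) and 0 to 99 (20 to 30 days), and PIN-II from 0.27 to 2.08 between 2 and 5 days and from -2.43 to -1.69 between 10 and 20 days. The difference between systems ran from 140 to 721 spots. The blocked count for large against small tubers, run after the data were examined, ran from 1032 to 2082.

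Spots with 1 gene name hold cloned sequences that related family members can bind, and 2 arrays a group limit every call. Missing values limit patatin to 1 testable spot.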

Other observations

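A sample can exceed an equal pool of 6 stages by at most 2.58 in log2. In vivo, 10 of the 127 values of patatin and the inhibitors in replicate 1 lay above that bound, up to 3.86, and 0 of 122 in replicate 2, where the highest was 2.12. Over all spots 413 values in replicate 1 and 46 in replicate 2 lay above it, and 2070 and 1781 as far below 0. In vitro the bound of a pool of 5 is 2.32, and 2 and 4 values of all spots lay above it, with 282 and 286 as far below 0.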
